A study of Sus scrofa with 8 samples.

Results

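GYS1, PHKA1 and PPP1R3A are 3 genes of glycogen synthesis and breakdown, taken from the 5650 genes that carried a peak of N6-methyladenosine (m6A) in the muscle of at least 1 of 4 pigs. They were found by their symbols in the deposited peak lists, where each matched 1 gene identifier and 1 transcript. The pigs were 2 Landrace males, of a Danish breed, and 2 Jinhua males, of a Chinese breed with more intramuscular fat, and all were 180 days old. Each animal gave an input library and a library immunoprecipitated (IP) with an m6A antibody, so the 8 samples form 4 groups of 2. The labels describe no treatment or genotype other than breed, and the question was how m6A bears on fat stored within the muscle. Each animal has 1 list, which counts the peaks of every gene and places each by its first and last base and the annotated part of the transcript. The lists hold no read counts, enrichment or expression values, so the depth of the libraries is unknown.

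Glycogen is the glucose store of muscle fibres. Glycogen synthase, encoded by GYS1 in muscle, lengthens its chains, and glycogen phosphorylase (PYGM in muscle) shortens them. Phosphorylase kinase switches phosphorylase on, and PHKA1 encodes its regulatory alpha subunit of the muscle type. Protein phosphatase 1 opposes the kinase and activates the synthase, and it is brought to the glycogen particle by targeting subunits, of which PPP1R3A is the one characteristic of skeletal muscle. m6A is the most common internal modification of mRNA, and it is often found near stop codons and in 3' UTRs.

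Each of the 3 transcripts had a number of peaks that did not overlap between the breeds, and the direction was not shared. GYS1 had more peaks in Landrace, whereas PHKA1 and PPP1R3A had more in Jinhua. Together they carried 12 peaks in Jinhua 1 and 13 in Jinhua 2, against 10 for each Landrace animal. With 2 animals against 2, an exact two-sided permutation test cannot give a p below 0.33, so none of these differences can pass a threshold. Over the 5650 genes, 9.36% had more peaks in both Jinhua animals than in either Landrace animal and 4.85% the reverse. The genes were chosen with these results known, so the counts of members describe them and are not a test. Over all genes, the lists held 6433 and 7733 peaks for Jinhua 1 and Jinhua 2, and 6471 and 6176 for Landrace 1 and Landrace 2. Of 9 muscle markers 8 carried a peak in all 4 lists, and MYH4 carried none. Of all genes with a peak in any list, 43.8% were called in all 4. Of 6 adipocyte markers, LIPE and CIDEC carried a peak in all 4 lists, and ADIPOQ, PLIN1, LEP and FABP4 carried none. Of 6 liver markers 2 were called, APOA1 and PYGL, and 1 of these was in all 4 lists. The lists do not tell how much of a transcript each animal expressed, so fewer cells, less RNA per cell and less methylation cannot be told apart.

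**Figure D1:**
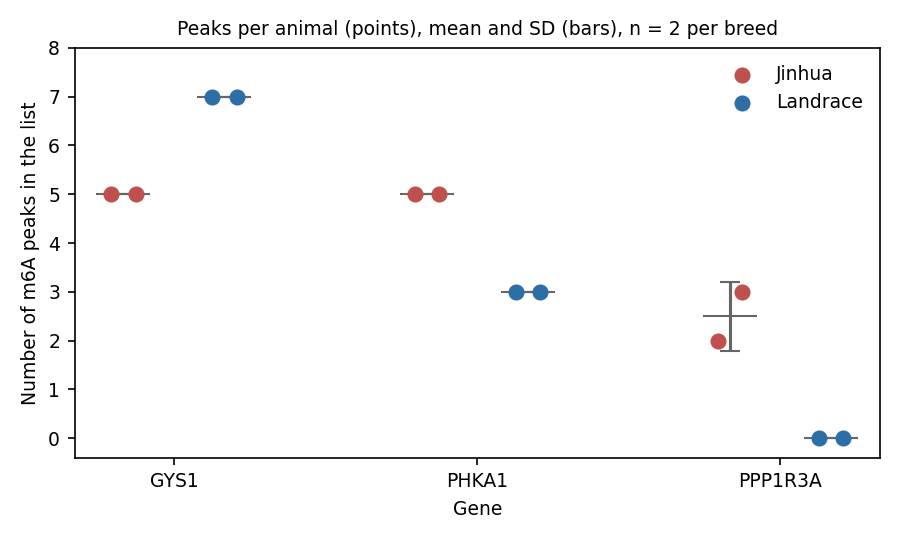
Number of m6A peaks listed for each gene, with 1 point per animal, and the mean and SD of each breed as bars. The points of the breeds do not overlap for any of the 3 genes, with GYS1 at 5 against 7, PHKA1 at 5 against 3, and PPP1R3A at 2 and 3 against 0.

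GYS1 (ENSSSCG00000003154), the synthase, was among the more heavily marked transcripts. It had 5 peaks in Jinhua 1, 5 in Jinhua 2, 7 in Landrace 1 and 7 in Landrace 2, or 24 over the 4 lists, against a median of 7 among genes with a peak in every list. The breed means were 5 ± 0 and 7 ± 0 (SD, n = 2 each), a difference of -2 for Jinhua minus Landrace (exact permutation p = 0.33, two-sided, the smallest possible). Both Landrace animals were thus above both Jinhua animals, and animals of one breed had equal numbers. Among the 2474 genes called in all 4 lists, 4.77% had more peaks in both Landrace animals, and among the 376 of these with 12 or more peaks in all it was 8.51%. A difference of -2 or lower occurred in 1.33% of the 2474 genes. With a median of 7 peaks, those genes leave less room for such a difference, so this share is not a like comparison. No other gene had the same numbers in each of the 4 lists.

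Most of the placed GYS1 peaks lay at sites shared by the breeds. Positions are counted in bases from the 5' end of transcript ENSSSCT00000003502, and peaks that overlapped or directly adjoined were merged into regions. The first region, in the coding sequence, spanned bases 313 to 639 and held a peak in all 4 lists. The next, also coding, spanned bases 2065 to 2400, and the last was a 3' UTR region from base 2776 to 2974, again both with a peak in all 4. Bases 322 to 487, 2081 to 2255 and 2776 to 2947 were covered in every animal. The second coding region and the 3' UTR region were 375 bases apart.

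The edges of several GYS1 peaks were the same base in different animals. In the 3' UTR region the peak began at base 2776 in all 4 lists and ended at base 2974 in Jinhua 1, 2953 in Jinhua 2, and 2947 in both Landrace animals. A common start in all 4 lists was found in 185 of 2123 regions with 1 peak per list (8.71%), and the median spread of starts there was 22 bases. In the first region a peak ended at base 487 in every animal. In Jinhua 1 and both Landrace animals another peak began at base 488, so the region was counted as a pair of peaks. A boundary at bases 2255 and 2256 in Jinhua 1, and at 2258 and 2259 in Jinhua 2 and Landrace 2, split the second coding region in the same way. Peaks that directly adjoin another peak of the same list made up 6.99% to 8.99% of placed peaks. The number of peaks therefore counts some sites more than once.

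The additional GYS1 peaks of Landrace 2 were distal in the 3' UTR. They covered bases 3811 to 3910 and 4870 to 5023, and neither Jinhua 1, with every peak placed, nor the placed peaks of the other animals overlapped them. With adjoining peaks counted as 1, Jinhua 1 had 3 regions and Landrace 2 had 5, and the difference between these animals was made by those distal peaks. The lists of Jinhua 2 and Landrace 1 give no position for 1 and 3 of the GYS1 peaks, because they place at most 4 peaks per gene. Whether Landrace 1 carried the distal peaks as well could not be read from its list. They can therefore be called neither sites of both Landrace animals nor sites of Landrace 2 alone. In the bases covered, Jinhua 1 and Landrace 2 shared 787 of 1099 (71.6%), against a median of 64.4% over the 2951 genes placed fully in both.

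**Figure D2:**
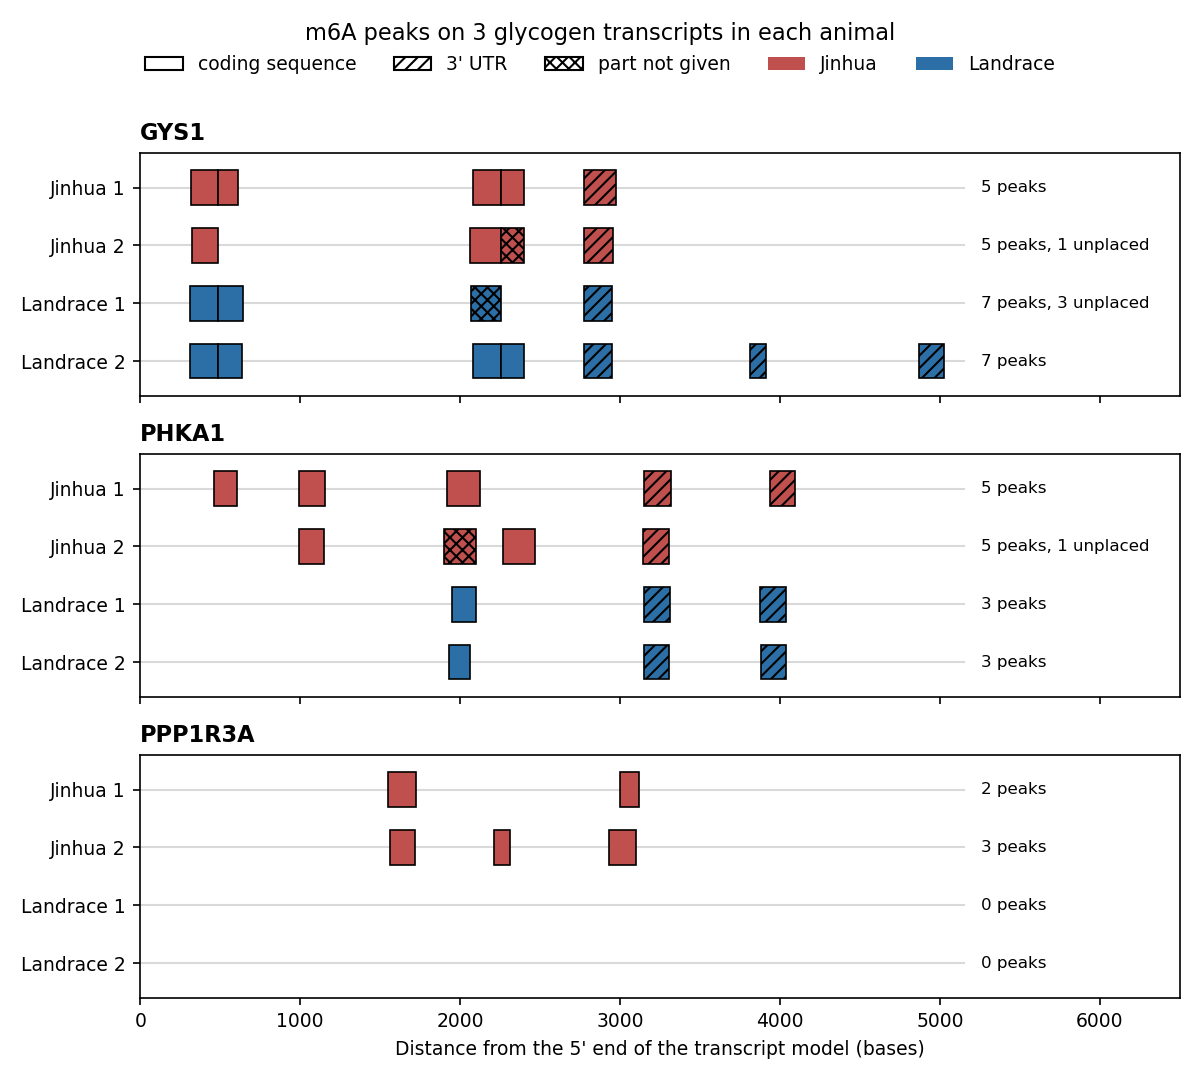
Placed m6A peaks on the transcript models of the 3 genes, with 1 line per animal and the distance from the 5' end in bases on the horizontal axis. Grey lines are guides and do not show transcript length, hatching marks the annotated part, and the number of peaks of each animal, with those that have no position, stands at the right. GYS1 has 3 regions with peaks in all 4 animals, PHKA1 has 2, and the PPP1R3A lines of both Landrace animals are empty.

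PHKA1 (ENSSSCG00000012411), the alpha subunit of phosphorylase kinase, ran the other way. It had 5 peaks in Jinhua 1, 5 in Jinhua 2, 3 in Landrace 1 and 3 in Landrace 2. The breed means were 5 ± 0 and 3 ± 0 (SD, n = 2 each), a difference of 2 (exact permutation p = 0.33, two-sided). Again the breeds did not overlap and the animals within a breed were equal. More peaks in both Jinhua animals were found in 7.96% of the genes called in all 4 lists, and in 14.6% of those with 12 or more peaks in all. A difference of 2 or more occurred in 2.63% of genes called in all 4. Their median was 7 peaks over the 4 lists, against 16 for PHKA1, so this share is not a like comparison either. No other gene matched PHKA1 in all 4 numbers.

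**Figure D3:**
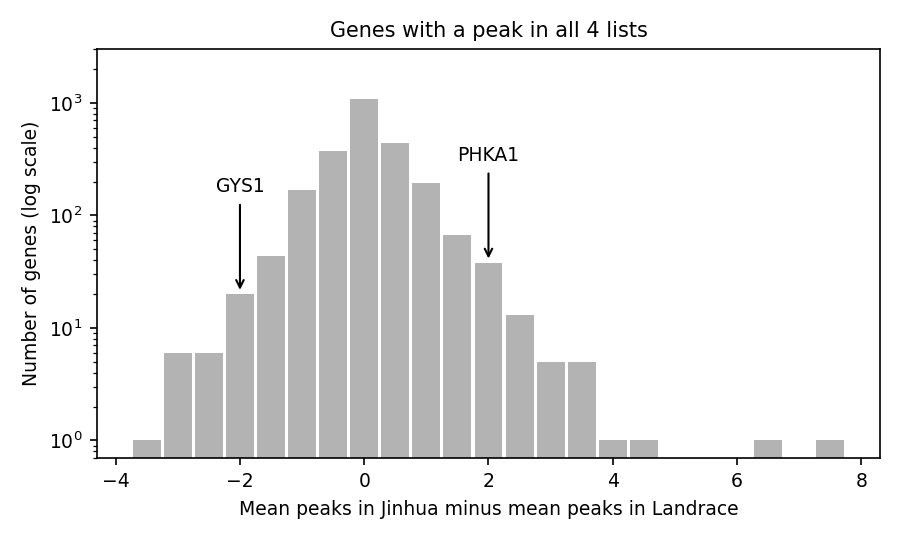
Mean number of peaks in Jinhua minus that in Landrace for the 2474 genes with a peak in all 4 lists, with the number of genes on a log axis. The median is 0, GYS1 stands at -2 and PHKA1 at 2. Differences of -2 or lower make up 1.33% of the genes and differences of 2 or more 2.63%. The genes are not matched for their number of peaks, which has a median of 7 over the 4 lists.

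On the PHKA1 transcript (ENSSSCT00000013571) the breeds shared a coding and a 3' UTR region and differed within the coding sequence. The shared coding region spanned bases 1901 to 2126, with bases 1951 to 2060 covered in all 4 animals. The shared 3' UTR region spanned bases 3142 to 3315, and its starts lay within 10 bases of one another. A second coding site was present in Jinhua alone, at bases 995 to 1152 in Jinhua 1 and 994 to 1147 in Jinhua 2. The starts of these peaks differed by 1 base and the ends by 5. Neither Landrace animal had a peak there, and both have all 3 of their peaks placed. Among regions of genes called in all 4 lists, with at most 4 peaks in each, 3.50% were Jinhua-only in this sense and 2.86% Landrace-only. PHKA1 exceeds 4 peaks and is not among those genes.

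The other PHKA1 sites belonged to single animals or to both breeds. A coding peak at bases 461 to 602 was listed in Jinhua 1 alone, and one at bases 2270 to 2467 in Jinhua 2 alone. A distal 3' UTR peak lay at bases 3937 to 4093 in Jinhua 1, 3875 to 4035 in Landrace 1 and 3884 to 4039 in Landrace 2. Jinhua 2 has 1 peak without a position, so it is not known whether this animal lacked the distal site. Of the peaks with a stated part, the coding sequence held 3 in Jinhua 1 and 2 in Jinhua 2, against 1 in each Landrace animal, while the 3' UTR held 2 in each fully placed animal. The Landrace animals shared 83.7% of the PHKA1 bases in peaks of either, whereas Jinhua 1 shared 46.0% with Landrace 1 and 43.9% with Landrace 2. Over all genes placed in both, the medians for these pairs were 66.8%, 61.4% and 64.4%. PHKA1 peaks covered 828 bases in Jinhua 1, 471 in Landrace 1 and 440 in Landrace 2. These unequal totals alone limit the share between breeds, so it restates the difference in peak number. The Jinhua pair could not be compared, since Jinhua 2 has a peak without a position.

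PPP1R3A (ENSSSCG00000016640), the muscle targeting subunit, was called in Jinhua alone. It had 2 peaks in Jinhua 1, 3 in Jinhua 2 and none in either Landrace list. The means were 2.5 ± 0.707 and 0 ± 0 peaks (SD, n = 2 each), a difference of 2.5 (exact permutation p = 0.33, two-sided). The peaks covered 291 bases in Jinhua 1 and 421 in Jinhua 2, a mean of 356 ± 91.9 (SD, n = 2; exact permutation p = 0.33). Genes with this pattern, called in the Jinhua pair but in no Landrace animal, made up 5.15% of the 5650, and those with the reverse pattern 2.42%.

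All PPP1R3A peaks were annotated as coding sequence of ENSSSCT00000018118, without a peak in either UTR. One region spanned bases 1551 to 1724 in Jinhua 1 and 1565 to 1719 in Jinhua 2. Another spanned bases 3001 to 3117 and 2931 to 3096, with 96 bases in common. Both thus recurred in the second Jinhua animal. As the gene has no Landrace peak, any region found in both Jinhua animals is Jinhua-only by construction. Of all 9414 regions of genes with at most 4 peaks per list 5.59% had this pattern. That share includes genes called in Landrace and is not a like comparison. The third peak, at bases 2211 to 2310, was listed in Jinhua 2 alone and was 100 bases wide, the smallest width in any list. The Jinhua animals shared 251 of 461 bases (54.4%), below the median of 65.0% over the 3162 genes placed in both. The numbers of peaks were matched exactly by SETD1B, YAP1 and ZDHHC9. SETD1B was nearest in bases covered, with 240 in Jinhua 1 and 438 in Jinhua 2, followed by YAP1 with 246 and 333 and ZDHHC9 with 308 and 602.

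Over the 3 transcripts the placed peaks merged into 14 regions. Of these, 5 held a peak in all 4 lists, 3 were Jinhua-only, none was Landrace-only and 6 had another pattern. Those in all 4 belonged to GYS1 and PHKA1 and lay in both coding sequence and 3' UTR. The Jinhua-only regions, 1 in PHKA1 and 2 in PPP1R3A, were all coding. Those of PPP1R3A could have no Landrace peak, since the gene was not called in Landrace. Over the 9414 regions of genes with at most 4 peaks per list, 27.1% were in all 4 lists. Of these regions 5.59% were Jinhua-only and 3.38% Landrace-only. Within such genes called in every list, 52.2% of 4888 regions were in all 4. GYS1 and PHKA1 exceed 4 peaks and are not among those genes, so these shares are not a like comparison for their regions. Of the 45 peaks 5 have no position, and they could change the pattern of GYS1 regions and of PHKA1 regions that lack a peak in Jinhua 2.

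In the rest of the pathway most called genes carried a peak in every animal. Of 76 listed genes of glycogen and glucose use, 45 were called by symbol, and 27 of these (60.0%) were called in all 4 lists, against 43.8% of all called genes. PPP1R3A was the single gene with calls from the Jinhua pair alone (2.22%, against 5.15%), and none had the Landrace-only pattern (against 2.42%). Counts of peaks parted the breeds in more of them. In 7 of the 45 (15.6%) both Jinhua animals had more peaks, against 9.36% of all called genes, and GYS1 alone had more in both Landrace animals (2.22%, against 4.85%). Without GYS1, PHKA1 and PPP1R3A the counts were 5 of 42 (11.9%) and 0. The gene name table named 6 further called identifiers of these lists, and the counts were then 9 of 51 (17.6%) and 2 of 51 (3.92%). With adjoining peaks counted as 1, over the 43 genes with every position, 5 (11.6%) had more peaks in both Jinhua animals. Over all called genes with every position this share was 8.67%.

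**Figure D4:**
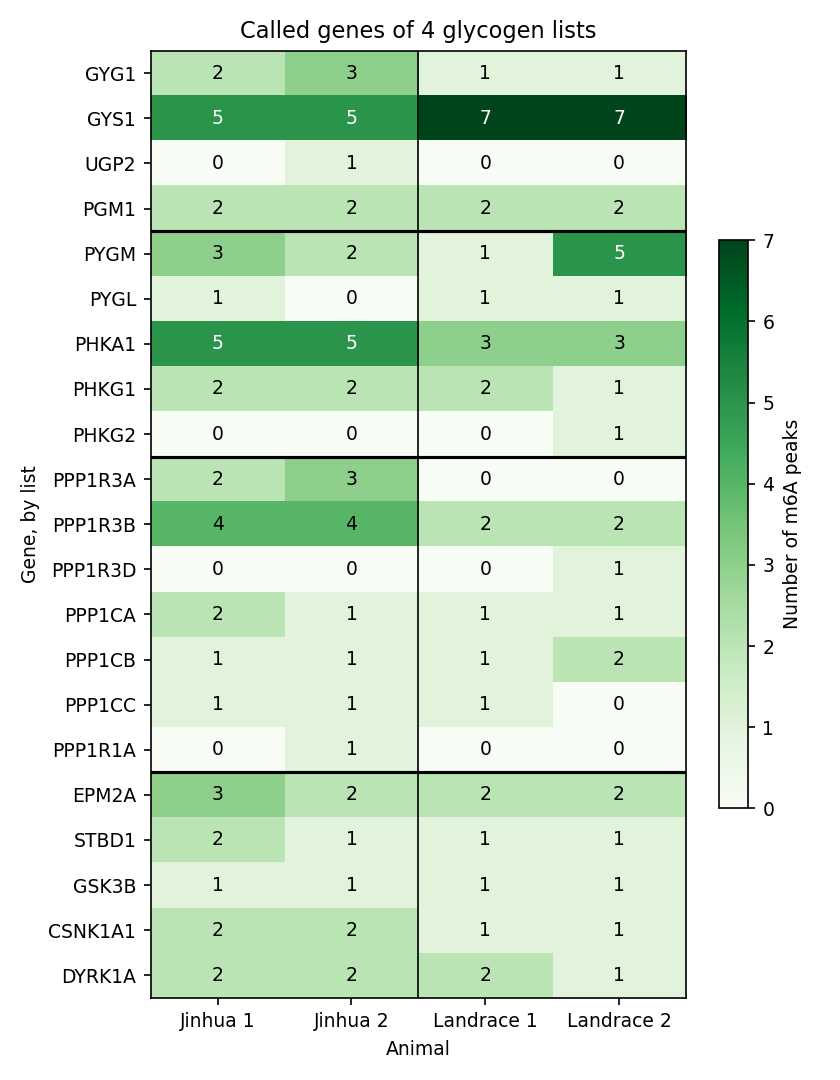
Number of m6A peaks in each animal for called genes of the 4 glycogen lists, in the order synthesis, breakdown, targeting subunits with protein phosphatase 1, and glycogen quality with kinases of the synthase. The symbols are those in the peak lists. GYG1, PHKA1, PPP1R3A, PPP1R3B and CSNK1A1 are darker in both Jinhua columns, and GYS1 is darker in both Landrace columns.

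Among the genes of synthesis, glycogenin (GYG1), which primes the glycogen particle, also had more peaks in Jinhua. Jinhua 1 had 2 peaks and Jinhua 2 had 3, while either Landrace animal had 1. All 4 animals shared a peak that began at base 1 of ENSSSCT00000012806. A further coding peak lay at bases 733 to 973 in Jinhua 1 and 684 to 870 in Jinhua 2, and no Landrace peak overlapped it. PGM1, the phosphoglucomutase that interconverts glucose phosphates, had 2 peaks in every animal, 1 coding and 1 in the 3' UTR. UGP2, which makes the UDP-glucose used by the synthase, had 1 peak in Jinhua 2 alone. Thus 3 of the 4 called genes of synthesis were called in every list, against 43.8% of all called genes. Peak numbers did not overlap between the breeds in GYG1, with more in Jinhua, and in GYS1, with more in Landrace. Over all called genes these patterns were found in 9.36% and 4.85%, and GYS1 was chosen with its values known.

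Among the other genes of breakdown, the numbers for the phosphorylase itself overlapped between the breeds. PYGM, the muscle phosphorylase, had 3 peaks in Jinhua 1, 2 in Jinhua 2, 1 in Landrace 1 and 5 in Landrace 2, so that the Landrace animals were the lowest and the highest. Its one region in all 4 lists began at base 1 of ENSSSCT00000014234.

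Of the other subunits of phosphorylase kinase, PHKB had more peaks in both Jinhua animals, as PHKA1 did, and the catalytic subunits did not. The catalytic subunit of muscle, PHKG1, had 2 peaks in 3 animals and 1 in Landrace 2, but all lay in a single 3' UTR region at bases 1173 to 1515 of ENSSSCT00000008491, which was covered in every animal. PHKG2, the catalytic subunit known from liver, had 1 peak in Landrace 2 alone. The regulatory beta subunit PHKB, named through the gene name table, carried 3 peaks in Jinhua 1 and 4 in Jinhua 2, against 2 for either Landrace animal. Its numbers thus parted the breeds without overlap, with more in Jinhua, as did those of 9.36% of all called genes. Its peak at bases 2017 to 2212 of ENSSSCT00000003145 in Jinhua 1 was matched in Jinhua 2 and Landrace 2, and no PHKB site was found in both Jinhua animals alone. PYGL, the liver phosphorylase, had 1 peak in each animal except Jinhua 2. GAA, the lysosomal glucosidase, again named through the table, had 1 peak in Jinhua 1, 1 in Landrace 1 and 3 in Landrace 2.

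Of the glycogen-targeting subunits of protein phosphatase 1, PPP1R3A and PPP1R3B had more peaks in both Jinhua animals. PPP1R3C alone had more in both Landrace animals. Over all called genes these patterns were found in 9.36% and 4.85%. PPP1R3B, a subunit abundant in liver and also present in muscle, carried 4 peaks in either Jinhua animal and 2 in either Landrace animal. Its coding peak near base 812 and its distal 3' UTR peak were shared, at bases 809 to 1011 and 1736 to 1895 of ENSSSCT00000026451. Between them, 3' UTR peaks covered bases 1135 to 1539 in Jinhua 1 and 1174 to 1491 in Jinhua 2, and neither Landrace animal had a peak there. PPP1R3C, a widely expressed subunit that the lists give without a symbol, showed the reverse, with 1 peak in either Jinhua animal against 3 in either Landrace animal.

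The shared PPP1R3C peak was almost the same in all 4 animals, at bases 877 to 1033 of ENSSSCT00000011452 in Jinhua 1 and Landrace 2. The additional Landrace peaks were coding, at bases 250 to 405 and 496 to 710 in Landrace 1 and at 249 to 406 and 470 to 650 in Landrace 2. Each of these sites was thus placed in both Landrace animals and was absent from both Jinhua lists. Among regions of genes called in all 4 lists, with at most 4 peaks in each, 2.86% had this pattern. PPP1R3D had 1 peak in Landrace 2 alone. Of the catalytic subunits, PPP1CA had 2 peaks in Jinhua 1 and 1 in the other animals, PPP1CB had 2 in Landrace 2 and 1 in the others, and PPP1CC had 1 in each animal but Landrace 2. PPP1R1A, an inhibitor of the phosphatase, occurred under 2 identifiers, 1 with a peak in Jinhua 2 alone and 1, named by the table, with a peak in the Jinhua pair alone.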

How the data were processed

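The authors deposited a separate peak list for each animal. The submitters' processing notes name TopHat2 2.0.14, with Sscrofa10.2 and susScr3 as genome builds. Which peak caller, threshold and annotation were used is not given in the sources used here. Per the labels' protocols, mRNA was sonicated and precipitated with an m6A antibody, and libraries were stranded. Positions in the deposited lists are 1-based on Ensembl transcripts, and no genome coordinates or sequences are printed. The lists of Jinhua 2 and Landrace 1 place at most 4 peaks per gene and name the transcript part for 3 at most.

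A gene was called with 1 or more peaks. Overlapping or directly adjoining peaks were merged into regions, and shares over all regions used the 5422 genes with at most 4 peaks in every list. Breed means were compared by exact permutation in Python 3.11.15 with numpy 2.4.6. Symbols came from the lists, and the gene name table named 520 of the 1180 identifiers without one as an alternative. The genes and the 7 pathway lists (76 symbols) were chosen with earlier results of these data known. The rule for named genes took the 3 genes, every called gene of the lists of synthesis, breakdown and targeting subunits, every gene called in 1 breed alone, and up to 3 genes in all 4 lists, with most peaks, of each other list. A result that the rule names is not reported here. The background of genes with 12 or more peaks, PRKAA2, PRKAG3 and the genes named through the table were added after values were seen. The labels describe separate males, so replicates are animals. The steps were tested on simulated peak lists. Alternatives left out each animal, used the replicate number as a block, required wider peaks or more overlap, joined near peaks, or required 2 peaks.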

Additional observations from a re-analysis of the deposited data

How the results depend on the processing

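The differences in peak number kept their direction in every alternative run, but this outcome was largely fixed in advance. Because the breeds did not overlap, leaving out 1 animal or using the block could not reverse them. Equal numbers within each breed also fixed the GYS1 and PHKA1 values when 1 animal was left out. For PPP1R3A, without a Landrace peak, no setting could reverse the direction. Replicate numbers mark separate animals, and with the number as a block the differences were the same, -2 for GYS1, 2 for PHKA1 and 2.5 for PPP1R3A (356 in bases), with an exact sign-flip p of 0.5, the smallest that 2 pairs allow. No paired value changed a call. Leaving out 1 animal gave -2 and 2 in each case for GYS1 and PHKA1, 2 to 3 for PPP1R3A, and 291 to 421 bases for PPP1R3A. With peaks of 150 bases or more the PPP1R3A difference was 1.5 peaks and 247.5 bases. Wider peaks and joined peaks could not be computed for GYS1 and PHKA1, whose positions are incomplete.

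Of the 3 transcripts' regions, those in every list stayed between 4 and 5 under other overlap, joining and width settings, and Jinhua-only regions between 2 and 3. Without 1 animal, a case added after the data had been seen, they were 5 to 6 and 3 to 5, and Landrace-only regions were 0 to 2. A single list then stands for its breed, so such regions increase by construction. Jinhua-only regions were 5 without Jinhua 1, and Landrace-only ones 1 without Jinhua 1 and 2 without Landrace 1.

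For the pathway lists, genes in every list were 28 to 31 with 1 animal left out, Jinhua-only genes 2 to 5 and Landrace-only genes 0 to 3. Over all called genes the shares then were 49.6% to 52.7% in every list, 9.68% to 17.5% Jinhua-only and 5.43% to 7.66% Landrace-only. With 2 or more peaks for a call, 11 of 29 genes were in every list and 5 were Jinhua-only, against 29.1% and 5.78% over all genes. Among the 5 were GYG1, PRKAA2, CSNK1A1 and PPP1R3A. PPP1R3A was chosen with its values known, and the CSNK1A1 peaks of each Jinhua animal adjoin and form 1 region. With symbols also from the table the Jinhua-only count was 2. Genes with more peaks in both Jinhua animals were 9 to 14 with 1 animal left out, and those with more in both Landrace animals 2 to 5. These were 20.9% to 31.8% and 4.55% to 11.1% of the called pathway genes, against 16.5% to 30.6% and 9.96% to 15.6% of all called genes. The count for Landrace was 2 with the table's symbols and 0 over the 43 genes with every position, with or without merging of adjoining peaks, since GYS1 drops out there. Depth is unknown, which limits what the absence of a peak shows.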

Other observations

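Outside glycogen itself, the peak numbers of called genes of glycolysis and glucose entry overlapped between the breeds. None of the 15 called glycolysis genes and none of the 4 of glucose entry had peak numbers that did not overlap between the breeds, against 9.36% with more in Jinhua and 4.85% with more in Landrace over all called genes. PKM, the pyruvate kinase of muscle, had 3 peaks in each animal, PFKFB3, which sets the level of the activator of phosphofructokinase, had 3 in each animal but Landrace 2, which had 2, and LDHA, the lactate dehydrogenase of fast muscle, had 2 in each. The glucose transporter SLC2A4 had 3 peaks in Jinhua 1 and 2 in the others, and the hexokinase HK1 had 2 in Landrace 1 and 1 in the others. TXNIP, which restrains glucose uptake, had 2 peaks in Jinhua 1, 3 in Jinhua 2, 4 in Landrace 1 and 2 in Landrace 2. All 5 called genes of glycogen quality and of kinases acting on the synthase carried a peak in every animal, against 43.8% of all called genes, among them EPM2A, the laforin phosphatase, with 3 in Jinhua 1 and 2 in the others, and DYRK1A with 1 in Landrace 2 and 2 in the others. CSNK1A1, a casein kinase, carried 2 peaks in either Jinhua animal and 1 in either Landrace animal. With adjoining peaks counted as 1 it had 1 region in every animal, which ran from base 209 to 619 of ENSSSCT00000015780 in Jinhua 1, 208 to 573 in Jinhua 2, 170 to 372 in Landrace 1 and 208 to 480 in Landrace 2. The region thus reached further towards the 3' end in both Jinhua animals.

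Of the AMPK subunits, PRKAB2 had 1 peak in each animal. PRKAA2, the catalytic alpha subunit typical of muscle, had 2 peaks in each Jinhua animal, 1 in Landrace 1 and none in Landrace 2. Its peak at bases 931 to 1060 of ENSSSCT00000004249 in Jinhua 1, and 871 to 1051 in Jinhua 2, was found in Jinhua alone. Over all called genes 9.36% had more peaks in both Jinhua animals. Of regions of genes with at most 4 peaks per list, 5.59% were Jinhua-only. PRKAA2 was added after its values were seen. PRKAG3, the muscle gamma subunit in which a known pig allele raises muscle glycogen, had 2 peaks in each animal except Landrace 1, which had none. Both single-animal peaks at bases 3811 to 3910 of GYS1 and 2211 to 2310 of PPP1R3A were 100 bases wide, a width that 8.63% to 10.3% of placed peaks had in each list.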
